A study of Mus musculus with 6 samples.

Results

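Messenger RNA of the enzymes that charge transfer RNA (tRNA) was followed in kidneys of D-serine-treated and vehicle-treated mice. The group comprised 40 genes, chosen by symbol: 21 cytosolic aminoacyl-tRNA synthetases, 16 mitochondrial ones and the 3 scaffold genes Aimp1, Aimp2 and Eef1e1. All 40 were among the 24346 genes listed for each library, and all 40 passed the minimum of a mean of 1 FPKM that 11737 genes passed. In 3 kidney libraries the mice had been given 0.1% D-serine in their drinking water, and in the other 3 they drank water without it. All mice ate a serine-free diet for 1 week, then lost 1 kidney by unilateral nephrectomy, and tissue was collected 2 days after surgery. Strain, sex and age were not used here, sham-operated mice were not analysed here, and the labels do not say whether each library came from its own mouse, so the p-values measure the spread between these libraries.

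A synthetase joins an amino acid to its tRNAs and so sets which amino acid a codon receives. The enzymes fall into class I and class II by the fold of the active site. In the cytosol, several of them form the multisynthetase complex on the scaffolds p43, p38 and p18, encoded by Aimp1, Aimp2 and Eef1e1. Mitochondria use a largely separate set, encoded in the nucleus, to make respiratory chain subunits, which the proximal tubule holds in abundance. Synthetase genes are also known targets of the transcription factor ATF4, which acts when uncharged tRNA accumulates. Seryl-tRNA synthetase charges L-serine, the mirror image of the compound given here, and the D-aminoacyl-tRNA deacylase Dtd1 removes D-amino acids that were attached to tRNA.

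Start-site windows of 6 members are shown because they stand for both outcomes described below: Iars, Dars, Eprs and Iars2 had D-serine values below all vehicle values, while Sars and Aars had overlapping groups. They are RefSeq sequences of the GRCm38.p6 assembly (mm10), from 250 bases before to 50 bases after a start site, read on the strand of the gene. Capitals mark an ATF4 composite element (TGATGNAA) or an E-box (CACGTG) on either strand, and the windows of Dars, Eprs, Iars2 and Sars hold neither. The windows are chr13:49681880-49682179 (plus strand) for Iars, chr1:128417367-128417666 (minus) for Dars, chr1:185362794-185363093 (plus) for Eprs, chr1:185329352-185329651 (minus) for Iars2, chr3:108445210-108445509 (minus) for Sars and chr8:111033592-111033891 (plus) for Aars.
Iars: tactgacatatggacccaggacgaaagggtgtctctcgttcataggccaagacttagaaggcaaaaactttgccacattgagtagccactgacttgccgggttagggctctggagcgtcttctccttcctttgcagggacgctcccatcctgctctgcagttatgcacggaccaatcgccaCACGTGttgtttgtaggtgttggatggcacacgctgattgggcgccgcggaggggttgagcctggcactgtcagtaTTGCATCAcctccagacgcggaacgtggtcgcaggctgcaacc
Dars: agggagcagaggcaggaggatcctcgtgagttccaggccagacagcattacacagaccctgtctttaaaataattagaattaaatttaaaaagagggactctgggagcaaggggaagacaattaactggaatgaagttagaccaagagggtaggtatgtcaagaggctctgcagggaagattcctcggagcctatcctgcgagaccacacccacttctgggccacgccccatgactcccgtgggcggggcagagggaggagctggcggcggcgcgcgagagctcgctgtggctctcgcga
Eprs: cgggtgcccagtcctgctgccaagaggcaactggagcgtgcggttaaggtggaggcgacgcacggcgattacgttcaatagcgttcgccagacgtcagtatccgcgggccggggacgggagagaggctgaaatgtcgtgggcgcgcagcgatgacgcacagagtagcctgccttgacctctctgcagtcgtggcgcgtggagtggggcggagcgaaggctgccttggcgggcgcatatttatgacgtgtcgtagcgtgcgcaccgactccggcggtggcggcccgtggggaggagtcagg
Iars2: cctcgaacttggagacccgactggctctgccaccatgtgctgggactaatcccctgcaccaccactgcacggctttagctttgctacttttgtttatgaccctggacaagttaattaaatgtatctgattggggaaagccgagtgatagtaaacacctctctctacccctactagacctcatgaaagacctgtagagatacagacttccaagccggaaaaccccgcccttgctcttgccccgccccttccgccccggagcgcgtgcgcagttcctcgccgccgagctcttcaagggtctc
Sars: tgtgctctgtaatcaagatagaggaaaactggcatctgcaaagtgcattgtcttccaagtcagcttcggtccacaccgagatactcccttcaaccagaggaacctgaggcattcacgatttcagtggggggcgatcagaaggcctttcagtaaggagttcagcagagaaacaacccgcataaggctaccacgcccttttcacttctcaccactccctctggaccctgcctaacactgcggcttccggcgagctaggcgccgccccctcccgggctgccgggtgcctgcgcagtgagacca
Aars: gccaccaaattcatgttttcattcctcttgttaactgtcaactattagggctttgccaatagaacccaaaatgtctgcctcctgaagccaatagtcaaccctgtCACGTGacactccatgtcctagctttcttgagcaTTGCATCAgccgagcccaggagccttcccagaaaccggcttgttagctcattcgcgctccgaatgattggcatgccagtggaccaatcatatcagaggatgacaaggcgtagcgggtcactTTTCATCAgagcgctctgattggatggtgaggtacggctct

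Among the 31 members with a window in the RefSeq table (33 windows), the ATF4 element stood in 5 windows (15.2%), those of Aars, Gars, Iars, Tars and Yars, against 3.97% of 32851 windows of the same length. The E-box stood in 5 as well (15.2%, against 7.15% of all windows), those of Aars, Ears2, Farsb, Iars and Tars. A CCAAT box (CCAAT on either strand) stood in 16 (48.5%, against 37.4%). Of the 5 genes with the ATF4 element, Iars had D-serine values below all vehicle values, whereas the groups overlapped for Aars, Gars, Tars and Yars. A match describes letters in a window and does not show binding.

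No member passed the test between D-serine and vehicle. In limma on log2(FPKM + 1), with Benjamini-Hochberg adjustment over all 11737 genes, 0 of 40 members had an adjusted p under 0.05, where 0.0767% of all tested genes did, and the smallest adjusted p of a member was 0.106 (Iars). At an adjusted p under 0.1, 0 of 40 members passed against 11.2% of all tested genes, although Iars, Dars, Iars2, Rars2 or Lars2 fell under 0.1 in 4 of the 17 alternative fits. With small RNA and predicted genes left out of the fit, 0 of 40 passed at 0.05 against 3.24% of the 11028 genes then tested. At an unadjusted p under 0.05, 0 members were higher (13.1% of all tested genes) and 7 were lower, which is 17.5% of the members against 14.6% of all tested genes. Libraries of the groups did not overlap for 4 members that were higher (10%, against 16.5% of all tested genes) and for 8 that were lower (20%, against 19.4%). These shares lie near or below the background.

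The median log2 difference was -0.03 for the 21 cytosolic members and -0.01 for the 16 mitochondrial members, beside -0.01 for all tested genes. The size of the difference had a median of 0.157 over the members and 0.206 over all tested genes. The 95% interval of the difference lay within 0.5 log2 of zero, a 1.41-fold difference, for 25 members (62.5%, against 45.2% of all tested genes), and within 1 log2 for 38. The exceptions to the wider limit were Lars2 and Rars2. Differences of log2(FPKM + 1) understate fold differences of genes near 1 FPKM, such as Ears2, Mars2 and Wars2. In whole kidney, fewer cells of a type and less RNA per cell cannot be told apart.

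**Figure D1:**
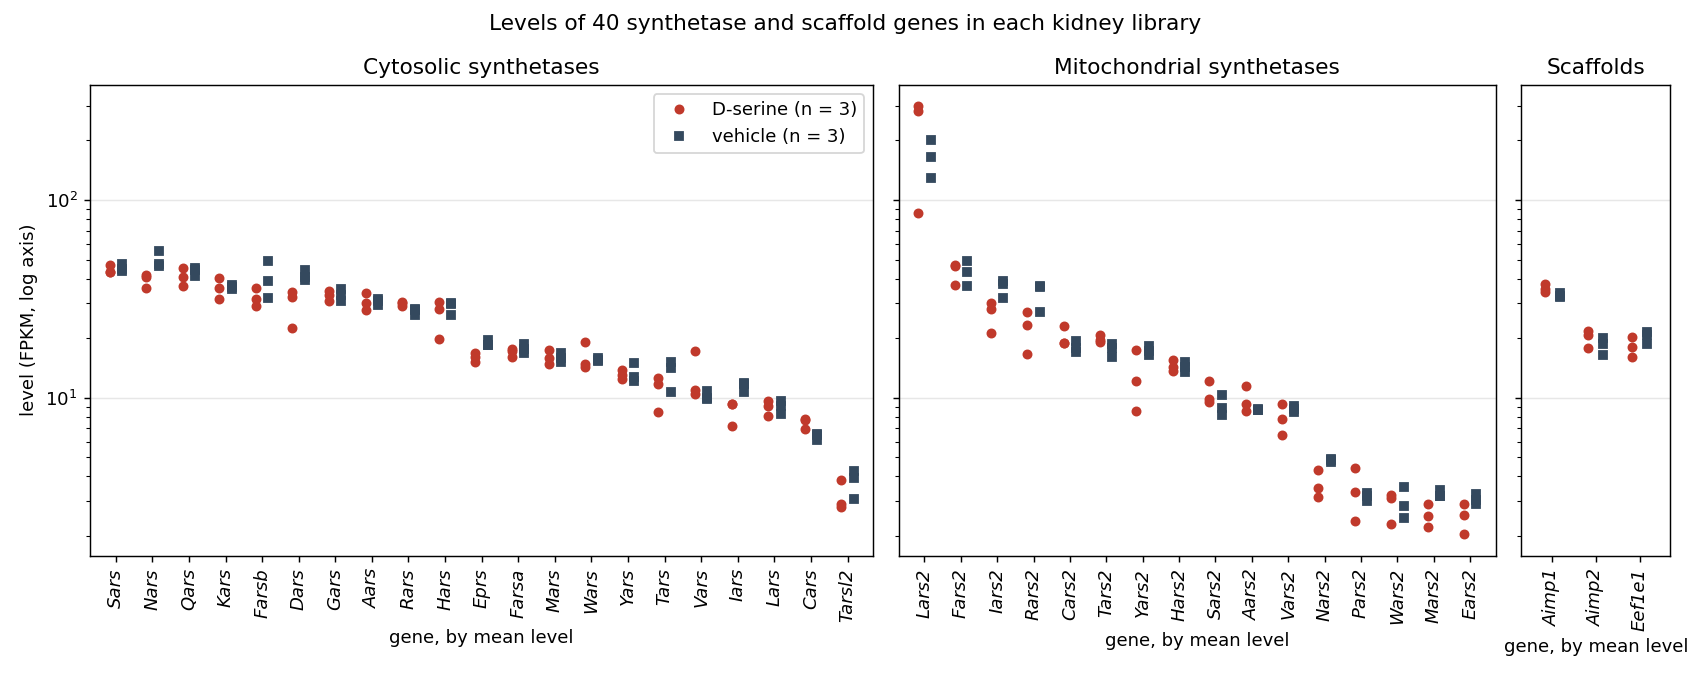
Level in FPKM (log axis) of each of the 40 members in 3 D-serine libraries (circles) and 3 vehicle libraries (squares), with genes ordered by their mean. Points of the groups lie close together for most genes, and Lars2 is spread most widely, from 85.5 to 297 FPKM in D-serine libraries.

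**Figure D2:**
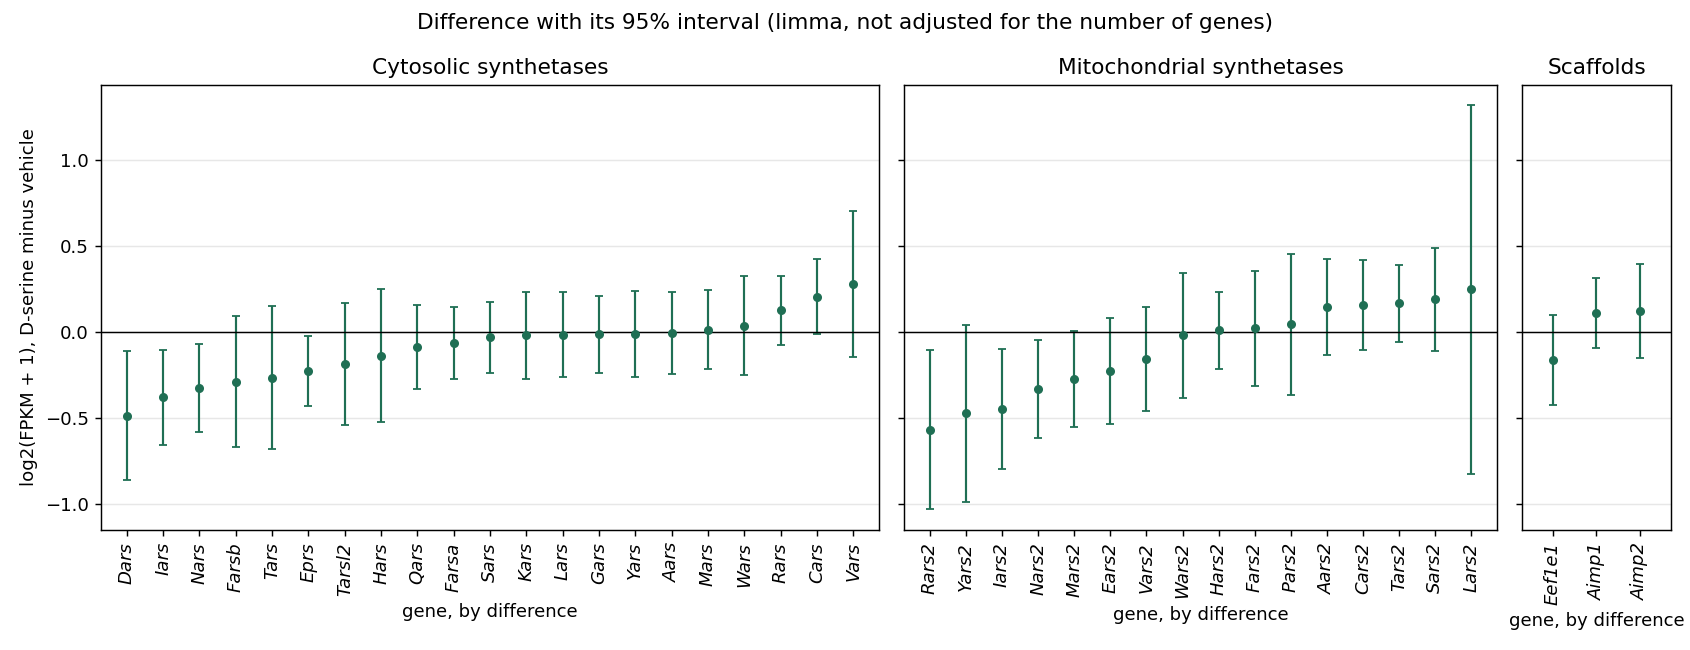
Log2(FPKM + 1) difference of D-serine minus vehicle for each member, with its unadjusted 95% interval from limma. In all, 7 intervals, each on the lower side, leave out zero, and none of the 40 members passed after adjustment.

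The multisynthetase complex holds 8 synthetases (Eprs, Iars, Lars, Mars, Qars, Rars, Kars and Dars) and the 3 scaffolds. Of these 11 genes, 4 were higher and 7 were lower, and the median of their log2 differences was -0.02. After adjustment 0 passed, where 0.0767% of all tested genes did. The lower genes Iars, Dars and Eprs had groups that did not overlap (27.3%, against 19.4% of all tested genes). So did Rars and Aimp1 on the higher side (18.2%, against 16.5%). For a list of 11 genes, these shares lie near the background. The summed level of the 11 genes was 268, 237 and 274 FPKM in D-serine libraries, against 276, 279 and 271 FPKM in vehicle libraries.

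Iars (chromosome 13, 49682100 to 49734267), isoleucyl-tRNA synthetase, was at 9.26, 7.19 and 9.28 FPKM in D-serine libraries, against 11.7, 11.9 and 10.7 FPKM in vehicle libraries. All D-serine values were below all vehicle values, with a log2 difference of -0.38 ± 0.12 (SE, 95% interval -0.66 to -0.10, limma adjusted p = 0.106). Dars (chromosome 1, 128363707 to 128417368), aspartyl-tRNA synthetase, was at 32.2, 22.5 and 34.3 FPKM with D-serine, against 44.1, 40.8 and 39.3 FPKM with vehicle. The groups again did not overlap, and D-serine replicate 2 was the lowest (log2 difference -0.49 ± 0.16, limma adjusted p = 0.115). Without that library the Dars difference was -0.31. Eprs (chromosome 1, 185363044 to 185428360) joins glutamate and proline to their tRNAs with 1 protein that has a catalytic part of each class. It was at 16.8, 15.1 and 16.1 FPKM with D-serine, against 19.5, 18.5 and 18.6 FPKM with vehicle (log2 difference -0.23 ± 0.09, limma adjusted p = 0.149). Its interval, from -0.43 to -0.02, was the narrowest of the 7 that left out zero.

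Rars, arginyl-tRNA synthetase, differed the other way within the same complex. It was at 29.0, 30.4 and 30.3 FPKM with D-serine, against 26.1, 28.2 and 27.9 FPKM with vehicle (log2 difference 0.12, limma adjusted p = 0.366). Aimp1, the p43 scaffold, was at 35.6, 34.1 and 37.7 FPKM with D-serine, against 32.4, 32.8 and 34.0 FPKM with vehicle, where the lowest D-serine value was just above the highest vehicle value (log2 difference 0.11, limma adjusted p = 0.430). Aimp2, the p38 scaffold, was at 20.7, 17.9 and 21.8 FPKM with D-serine, against 18.8, 20.1 and 16.4 FPKM with vehicle, and the groups overlapped. Its annotated exons share 487 of 1654 bases (29.4%) with those of Eif2ak1 on the opposite strand, which averaged 31.8 FPKM with D-serine and 37.7 FPKM with vehicle. Without a stated use of strand, reads of such overlapping genes cannot be told apart. Eef1e1, the p18 scaffold, was at 18.0, 16.2 and 20.2 FPKM with D-serine, against 18.7, 20.7 and 21.6 FPKM with vehicle, also with overlap. The other complex members, Lars, Mars, Qars and Kars (which also serves mitochondria), had log2 differences between -0.09 and 0.01.

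Sars and Sars2 charge serine in the cytosol and in mitochondria. Sars (chromosome 3, 108424865 to 108445209) was the most abundant member after Lars2, at 46.8, 43.1 and 43.0 FPKM with D-serine, against 43.9, 44.6 and 47.5 FPKM with vehicle. The groups overlapped throughout, and the log2 difference was -0.03 ± 0.09 (95% interval -0.24 to 0.17, limma adjusted p = 0.828). Sars2 (chromosome 7, 28741992 to 28753871) was at 9.55, 12.2 and 9.87 FPKM with D-serine, against 8.83, 10.3 and 8.21 FPKM with vehicle. Its groups overlapped as well, with a log2 difference of 0.19 ± 0.13 (95% interval -0.11 to 0.49, limma adjusted p = 0.363). In a fit that corrects each library for length and GC content of the transcripts, the Sars2 difference was -0.0047.

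Among the remaining class I enzymes of the cytosol, Cars, cysteinyl-tRNA synthetase, had the smallest p of any member that was higher. It was at 7.85, 7.69 and 6.99 FPKM with D-serine, against 6.47, 6.58 and 6.11 FPKM with vehicle. The groups did not overlap, yet the log2 difference of 0.20 ± 0.09 did not pass (limma adjusted p = 0.202). Vars, valyl-tRNA synthetase, was at 17.3, 10.5 and 10.9 FPKM with D-serine, against 10.8, 9.86 and 9.96 FPKM with vehicle, so that its mean rests on replicate 1. Without D-serine replicate 1, the Vars log2 difference was 0.06 in place of 0.28. Wars and Yars, for tryptophan and tyrosine, overlapped, with log2 differences of 0.04 and -0.01.

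The 11 class II enzymes of the cytosol all averaged below vehicle, from a log2 difference of -0.49 (Dars) to -0.01 (Aars), and their median was -0.14. By comparison 51.1% of all tested genes were lower. Groups did not overlap for 2 of the 11 on the lower side (18.2%, against 19.4% of all tested genes). On the higher side there were 0 (against 16.5%). Of this class, Aars, Gars, Kars and Sars lay between -0.03 and -0.01, and these 4 and Hars turned positive in at least 1 alternative (Sars to 0.02 with quantile normalization). Nars, asparaginyl-tRNA synthetase, was at 41.6, 35.9 and 40.7 FPKM with D-serine, against 46.3, 55.5 and 47.4 FPKM with vehicle. Its groups did not overlap (log2 difference -0.33 ± 0.11, 95% interval -0.59 to -0.07, limma adjusted p = 0.118). Farsb and Farsa, the beta and alpha subunits of phenylalanyl-tRNA synthetase, had log2 differences of -0.29 and -0.07 with overlapping groups, and that of Farsb was -0.14 without vehicle replicate 2. Tars, for threonine, averaged 10.9 ± 2.15 FPKM with D-serine and 13.3 ± 2.35 FPKM with vehicle (SD, n = 3 each), and its groups overlapped. Tarsl2, its cytosolic relative, averaged 3.19 ± 0.585 FPKM with D-serine and 3.76 ± 0.604 FPKM with vehicle (SD, n = 3 each), also with overlap. Hars, for histidine, was at 30.6, 19.8 and 28.2 FPKM with D-serine, against 30.0, 29.7 and 26.1 FPKM with vehicle, with replicate 2 apart from the other D-serine libraries.

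The mitochondrial enzymes were split evenly, with 8 higher and 8 lower. The summed level of the 15 genes other than Lars2 was 217, 180 and 212 FPKM with D-serine, against 222, 235 and 215 FPKM with vehicle. Iars2 (chromosome 1, 185284726 to 185329396), the mitochondrial isoleucine enzyme, was at 28.0, 21.2 and 30.2 FPKM with D-serine, against 37.8, 38.9 and 32.1 FPKM with vehicle. The groups did not overlap (log2 difference -0.45 ± 0.15, limma adjusted p = 0.117), as for its cytosolic counterpart Iars. Exons of Iars2 share 22.9% of their bases with those of Rab3gap2 on the opposite strand, which was at 4.03 FPKM with D-serine and 4.29 FPKM with vehicle. Rars2 (chromosome 4, 34614957 to 34660167), for arginine, had the most negative difference of the 40 members. It was at 23.2, 16.6 and 27.3 FPKM with D-serine, against 36.7, 36.4 and 27.0 FPKM with vehicle, and D-serine replicate 3 overlapped vehicle replicate 3. The log2 difference was -0.57 ± 0.20 (95% interval -1.03 to -0.11, limma adjusted p = 0.126) and -0.38 without D-serine replicate 2.

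Nars2, for asparagine, was at 4.31, 3.14 and 3.48 FPKM with D-serine, against 4.84, 4.72 and 4.90 FPKM with vehicle. Vehicle values were nearly equal and all above the D-serine values (log2 difference -0.33 ± 0.12, limma adjusted p = 0.137). Mars2, for methionine, was at 2.22, 2.89 and 2.51 FPKM with D-serine, against 3.41, 3.20 and 3.20 FPKM with vehicle, again without overlap (log2 difference -0.27, limma adjusted p = 0.183). Ears2, for glutamate and the member of lowest level, was the remaining lower gene whose groups did not overlap, at 2.49 ± 0.425 FPKM with D-serine and 3.08 ± 0.177 FPKM with vehicle (SD, n = 3 each). Yars2, for tyrosine, was at 17.4, 8.54 and 12.2 FPKM with D-serine, against 16.5, 18.3 and 17.3 FPKM with vehicle. Only D-serine replicate 1 lay within the vehicle range, and the difference of -0.47 became -0.24 without D-serine replicate 2.

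On the higher side, Tars2, for threonine, was at 20.9, 19.04 and 19.7 FPKM with D-serine, against 17.9, 16.2 and 18.8 FPKM with vehicle. The lowest D-serine library stood just above the highest vehicle library (log2 difference 0.17, limma adjusted p = 0.284). Cars2, for cysteine, was at 23.1, 18.8 and 18.9 FPKM with D-serine, against 17.8, 16.96 and 19.4 FPKM with vehicle, with overlap. Aars2, for alanine, was at 9.29, 11.5 and 8.56 FPKM with D-serine, against 8.66, 8.73 and 8.70 FPKM with vehicle. Vehicle libraries of Aars2 were almost identical, while D-serine libraries lay on both sides of them. Vars2, Fars2, Hars2, Pars2 and Wars2, the enzymes for valine, phenylalanine, histidine, proline and tryptophan, had log2 differences from -0.16 to 0.04 and overlapping groups.

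For 13 amino acids a cytosolic and a mitochondrial gene could be set side by side in FPKM, which is scaled by transcript length. The mitochondrial gene was the higher of the pair in all 6 libraries for 4 amino acids (leucine, isoleucine, cysteine and threonine, or 3 without leucine, whose Lars2 level is uncertain as described below) and the cytosolic gene in all 6 for 7. Iars2 stood at 31.4 FPKM over the 6 libraries against 10.0 FPKM for Iars, a ratio of 3.13, and Cars2 at 19.2 against 6.95 FPKM for Cars, a ratio of 2.76. At the other end, Nars2 had 0.095 and Sars2 0.219 of the level of their cytosolic counterparts. For isoleucine the ratio was 3.03, 2.95 and 3.25 in D-serine libraries, against 3.23, 3.28 and 2.99 in vehicle libraries, and the groups overlapped although both genes were lower. For arginine, Rars2 over Rars was 0.800, 0.547 and 0.901 with D-serine, against 1.41, 1.29 and 0.969 with vehicle, without overlap. The ratios for valine and methionine were likewise lower without overlap, so 3 of 13 pairs were lower and 0 higher in this sense. No share over ratios of other genes was computed, so these counts do not show a shift of the pairs. For levels of single genes, 19.4% of all tested genes were lower without overlap and 16.5% higher. The sign of the difference was shared by both genes of a pair for 4 of the 13.

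**Figure D3:**
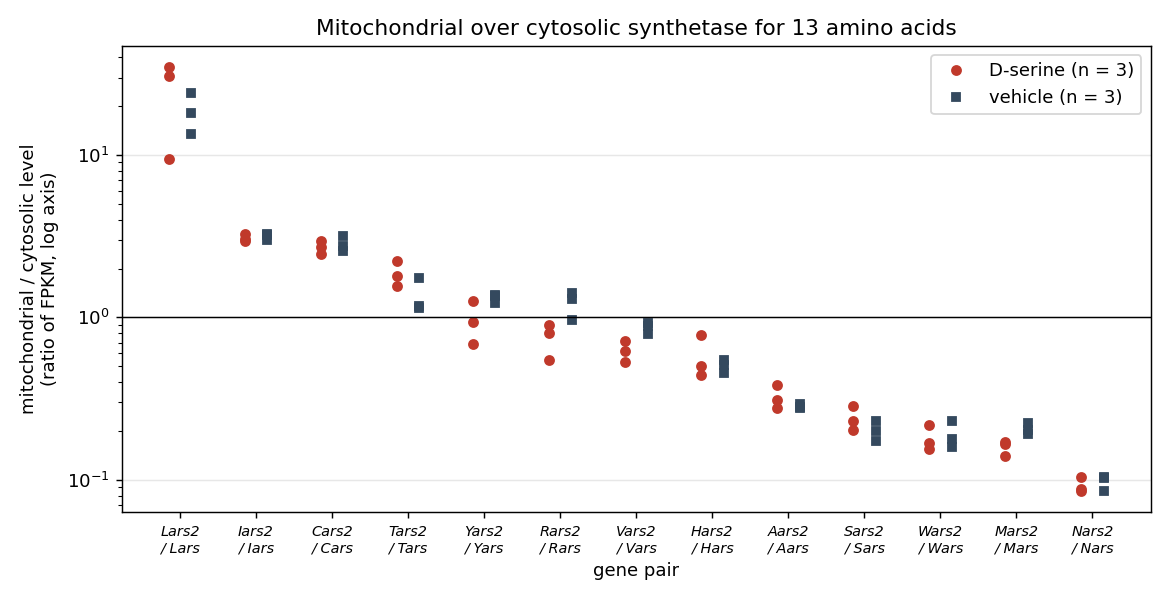
Level of the mitochondrial gene divided by that of the cytosolic gene (ratio of FPKM, log axis) for 13 amino acids, in 3 D-serine libraries (circles) and 3 vehicle libraries (squares). Ratios run from 0.095 for Nars2 over Nars to 21.5 for Lars2 over Lars, where the Lars2 level is uncertain, and the line marks equal levels.

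Lars2, the mitochondrial leucine enzyme, stood apart from the other members. It was at 297, 280 and 85.5 FPKM with D-serine, against 130, 201 and 164 FPKM with vehicle, and its D-serine libraries lay on both sides of all vehicle libraries. The next most abundant member, Sars, averaged 44.8 FPKM over the 6 libraries. The row for Rn45s, the precursor of ribosomal RNA, had 961, 1022 and 257 FPKM with D-serine, against 377, 670 and 505 FPKM with vehicle. The ratio of Lars2 to Rn45s was therefore close to constant, at 0.309, 0.274 and 0.333 with D-serine and 0.344, 0.299 and 0.326 with vehicle. Over the 6 libraries, Pearson's r between the log2 values of both rows was 0.995, the highest for Rn45s among all tested genes. This is a description of 6 points that share library and depth, and Rn45s was chosen after its values were seen. The part of ribosomal RNA reads in the Lars2 values was not tested, so the Lars2 level and its difference (log2 difference 0.25 ± 0.46, limma adjusted p = 0.746) are uncertain.

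The D-serine libraries spread more than the vehicle libraries. The SD of log2(FPKM + 1) was larger with D-serine for 32 of the 40 members (80%, against 65.6% of all tested genes), with a median of 0.165 with D-serine and 0.076 with vehicle. Over all tested genes these medians were 0.173 with D-serine and 0.121 with vehicle, so the members stood lower in their vehicle spread rather than higher in their D-serine spread. Replicate 2 of D-serine held the lowest of the 6 values for 22 members (55%, against 32.1% of all tested genes), among them Dars, Iars, Iars2, Rars2, Yars2 and Hars. Relative to the vehicle mean, the median log2 value of the members was -0.167 in this library, 0.058 in D-serine replicate 1 and -0.021 in D-serine replicate 3. It was also the shallowest library by the spacing of low values, at 0.836 of the depth of vehicle replicate 1, while the others were between 0.882 and 0.954. Without it, 0 members passed. Groups of 2 and 3 libraries then did not overlap for 7 higher members, where 19.9% of all tested genes did not, and for 8 lower members, where 22.7% did not. The part of this library's depth or RNA quality in the differences was not tested.

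**Figure D4:**
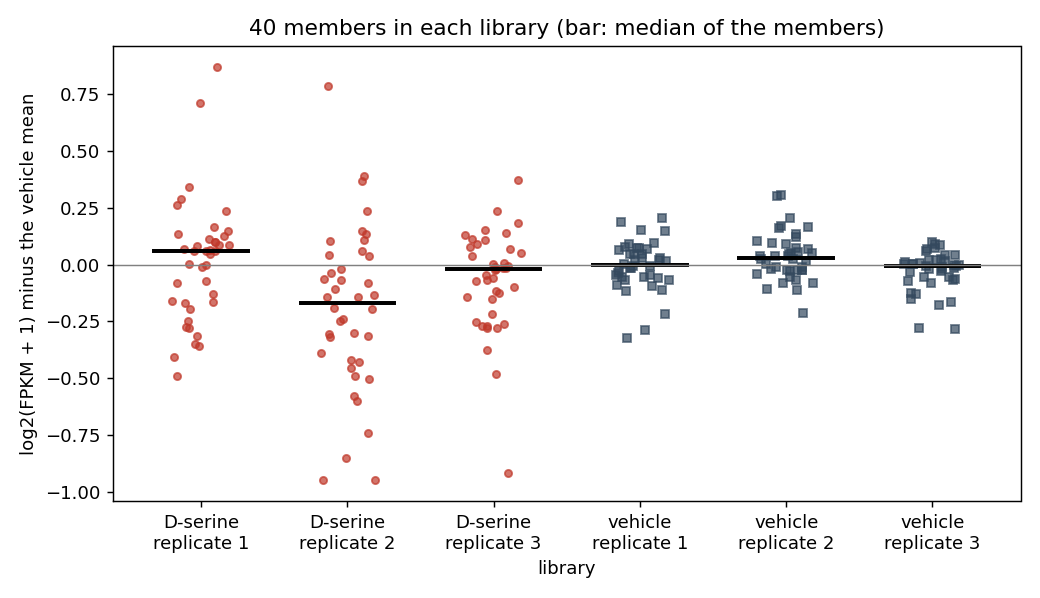
Each point is 1 of the 40 members, as its log2(FPKM + 1) minus the mean of the 3 vehicle libraries, by library, and the bar is the median of the members. The median of D-serine replicate 2 is -0.167 and those of the other 5 libraries lie between -0.021 and 0.058; vehicle points are drawn closer to zero because their own mean is the baseline.

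Members of low GC content more often had lower values with D-serine. Across the 40 members, Pearson's r between the log2 difference and the GC content of the longest annotated transcript was 0.54 (Spearman's rho 0.62), beside 0.19 (rho 0.28) across the 11309 tested genes with annotation. These genes share libraries and are not independent replicates. Of the 20 members below the median GC content of 48.8%, 16 were lower with D-serine (median difference -0.248 on the log2 scale), against 9 of the 20 at or above it (median 0.015). The low-GC group held Dars (41.2%), Rars2 (44.1%), Eprs (44.0%), Nars2 (44.8%) and Mars2 (38.8%), and the high-GC group Vars (60.9%), Sars2 (60.1%) and Aars2 (60.0%). Aimp1, of the lowest GC content (37.5%), was higher with D-serine. After the correction for length and GC content, r across the members was 0.29. The log2 differences were then -0.09 for Eprs and Mars2 and 0.01 for Aars2, but -0.46 for Dars, -0.57 for Rars2, -0.30 for Iars and Nars and -0.34 for Iars2. At an unadjusted p under 0.05, 1 member was then higher (10.9% of the 11309 genes) and 5 were lower (14.1%). Groups did not overlap for 4 higher (14.3%) and 5 lower members (18.5%), and 0 members passed after adjustment. The part of base composition in the remaining differences was not tested.

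**Figure D5:**
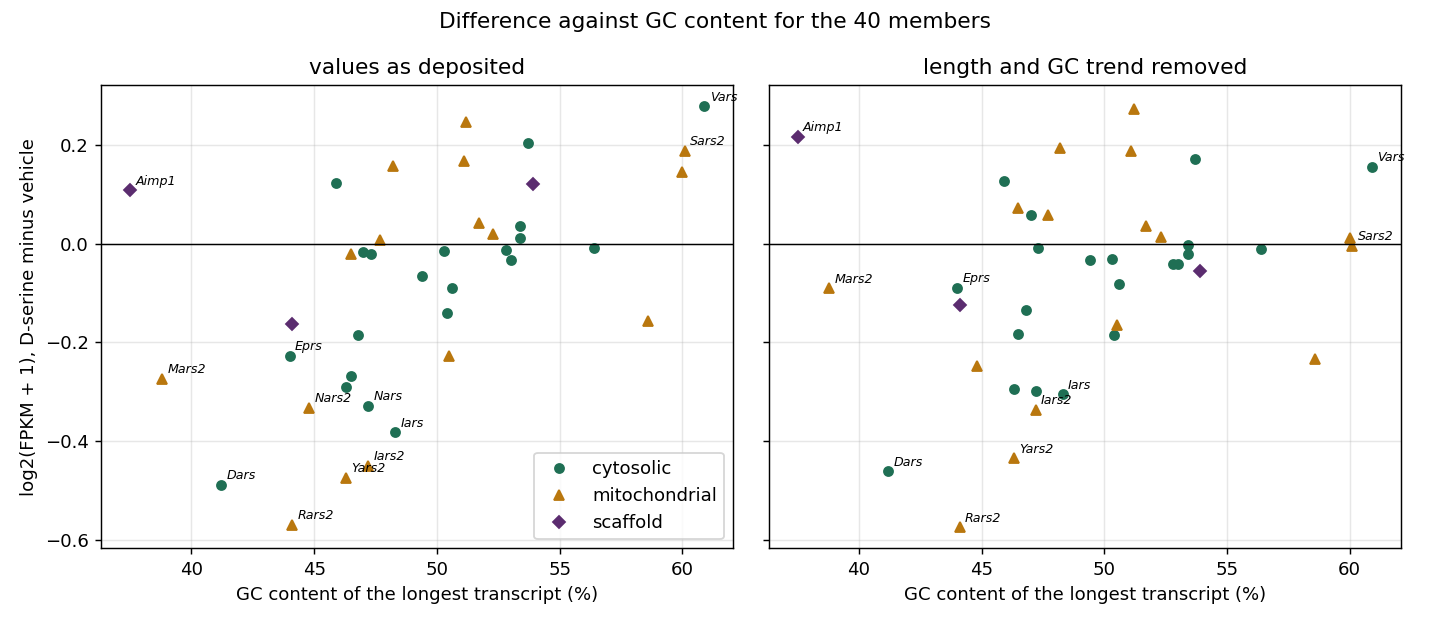
Log2(FPKM + 1) difference of D-serine minus vehicle against the GC content of the longest transcript, for values as deposited (left) and after each library was corrected for transcript length and GC content (right). Pearson's r over the 40 members is 0.54 on the left and 0.29 on the right.

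Genes that act beside the synthetases were read from lists. In the list of tRNA proofreading, 4 of 5 genes were higher and 1 lower, where 48.9% of all tested genes were higher. In limma, 0 passed at an adjusted p of 0.05, where 0.0767% of all tested genes did. At an unadjusted p under 0.05, 2 were higher (40%, against 13.1% of all tested genes) and 0 lower (against 14.6%). The lower gene was Dtd1, the deacylase that clears D-amino acids from tRNA, at 12.2, 14.5 and 14.2 FPKM with D-serine, against 15.5, 14.8 and 18.4 FPKM with vehicle. Its groups came close without overlapping (log2 difference -0.23 ± 0.12, limma adjusted p = 0.236). The Dtd1 difference was -0.14 without vehicle replicate 3 and -0.36 after the length and GC correction. Dtd2, a related deacylase that removes alanine wrongly joined to tRNA for threonine, was at 6.64, 5.21 and 4.69 FPKM with D-serine, against 5.03, 5.84 and 5.33 FPKM with vehicle, with overlap. Ankrd16, which binds alanyl-tRNA synthetase and limits serine mischarging, was at 12.3, 14.3 and 14.5 FPKM with D-serine, against 10.2, 8.94 and 10.6 FPKM with vehicle. All 3 D-serine values were above the vehicle values (log2 difference 0.43 ± 0.11, limma adjusted p = 0.0816).

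The list for sensing of uncharged tRNA and the ATF4 response had 13 tested genes of 18. Of these, 9 were higher (69.2%, against 48.9% of all tested genes) and 4 lower (median 0.19 on the log2 scale). In limma 0 passed at 0.05, where 0.0767% of all tested genes did. At an unadjusted p under 0.05, 3 were higher (23.1%, against 13.1% of all tested genes) and 1 was lower (7.69%, against 14.6%). Groups did not overlap for 4 higher (30.8%, against 16.5%) and 2 lower genes (15.4%, against 19.4%). Atf4 itself was at 77.8, 78.6 and 71.2 FPKM with D-serine, against 77.6, 72.1 and 65.8 FPKM with vehicle, and the groups overlapped (log2 difference 0.08, limma adjusted p = 0.616). Mthfd2, a folate enzyme of mitochondria, averaged 4.97 ± 1.99 FPKM with D-serine and 2.12 ± 0.554 FPKM with vehicle (SD, n = 3 each; limma adjusted p = 0.0924). Of the 5 members whose windows hold the ATF4 element, Aars, Gars and Yars had log2 differences of -0.01 each, Iars of -0.38 and Tars of -0.27.

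Markers of cell types were read from lists. At an adjusted p of 0.05 in limma, 0 passed in any list, where 0.0767% of all tested genes did. At an adjusted p under 0.1 (11.2% of all tested genes), 6 of 6 dividing cell markers and 3 of 5 principal cell markers passed. So did 3 of 4 tested markers of the proximal tubule's S3 segment and 1 of 6 of S1 and S2. Lists of the distal convoluted tubule, intercalated cells and androgen-responsive genes had 2 each, leukocytes 1, and the remaining lists 0. Markers of dividing cells summed to 47.1 to 162 FPKM with D-serine, against 9.56 to 11.6 FPKM with vehicle (6 of 6 higher), and those of collecting duct principal cells to 416 to 634 FPKM, against 280 to 381 FPKM (5 of 5 higher). Markers of the proximal tubule's S3 segment summed to 189 to 430 FPKM with D-serine, against 695 to 993 FPKM with vehicle (4 of 4 tested lower). Those of S1 and S2 averaged lower in 6 of 6, with summed levels of 2600 to 2971 FPKM against 2977 to 3382 FPKM. Most of that sum was Slc34a1, at 2147 FPKM with D-serine and 2395 FPKM with vehicle. Only 1 of the 6, Slc22a6, had groups that did not overlap (16.7%, against 19.4% of all tested genes). Slc5a2 and Slc5a12 had their lowest values in vehicle replicate 2, at 11.1 and 8.99 FPKM. No marker of these 4 lists was at 0 in all libraries. Most other lists were higher too, where 48.9% of all tested genes were. These were distal convoluted tubule (4 of 4), intercalated cell (5 of 5), podocyte (4 of 4), fibroblast and pericyte (5 of 5), endothelium (4 of 5) and leukocyte (2 of 2 tested). Thick ascending limb markers were split (2 of 4 higher), and 4 of 4 tested androgen-responsive genes were lower. S1 and S2 markers at such levels fit the kidney label. Their part in the differences of synthetase genes was not tested.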

How the data were processed

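Kidney messenger RNA of 6 libraries was analysed, 3 from D-serine-treated and 3 from vehicle-treated mice. The labels' protocols name a stranded mRNA library kit. The tools named are, per the submitters' processing notes, TopHat2 2.0.13, Bowtie2 2.2.3, SAMtools 0.1.19 and Cufflinks 2.2.1, with the mm10 build. Values deposited for each library are FPKM, fragment numbers that the authors scaled by transcript length and library size. The gene annotation and use of strand were not given in the sources used here. Such tables can list a failed estimate as 0 (Rpl26 was at 0 in all 6 libraries), but every member was above 0 in each library.

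The tables hold no counts. The spacing of low values gave relative depths of 0.836 to 1 and rough totals of 7310000 to 8740000 fragments, so low members such as Pars2 rest on few fragments, and no interval was computed from these estimates. Log2(FPKM + 1) values of genes averaging 1 FPKM or more were tested with limma 3.58.1 under R 4.3.3 (trended eBayes), two-sided and adjusted over all tested genes at 0.05. Intervals are limma's and are not adjusted. The smallest two-sided p of an exact permutation test on 3 and 3 libraries is 0.1, so none was used. Scripts were tested on simulated data. Gene positions, length and GC content came from GENCODE M21 (mm10), windows from RefSeq GRCm38.p6.

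The members and lists were chosen with earlier results of these data known. Values in every library are given for the 8 members of smallest p in each direction, Sars, Sars2, Eprs, the scaffolds, Dtd1, Dtd2 and Atf4, and other lists by their genes of smallest p. Hars, Yars2, Lars2 and Rn45s were added after their values were seen. The alternatives were other pseudocounts (0.1 or 0.01), minimums (none or 5 FPKM), scalings, weights per library, a fit without the trend, replicate number as a block, fewer gene classes, a length and GC correction, a threshold of 0.1 and leaving out each library.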

Additional observations from a re-analysis of the deposited data

How the results depend on the processing

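No member passed at an adjusted p of 0.05 as reported or in any of the 17 alternative fits (lowest adjusted p 0.0555, for Lars2 without D-serine replicate 3). The sign held in all alternatives for 24 members, and the 16 others had main differences of at most 0.25 in size (Lars2). Over all tested genes the count of 9 moved to 171 and 221 with pseudocounts of 0.1 and 0.01, 132 with a minimum of 5 FPKM, 269 with weighted libraries, 357 without small RNA and predicted genes, 1315 at a threshold of 0.1, and 2 to 608 without 1 library (608 without D-serine replicate 3, 27 without D-serine replicate 1). Members with an unadjusted p under 0.05 were 1 higher in place of 0 with quantile normalization (13.4% of all genes then tested) and after the length and GC correction (10.9%). Without 1 library they were 0 to 1, beside 8.42% to 14.8% of all tested genes. Those lower ran from 2 to 8 without 1 library, in place of 7 (3 and 2 without vehicle replicates 1 and 2). The share of all tested genes then ran from 8.8% to 16.2%, in place of 14.6%. Groups did not overlap for 4 to 7 higher members without 1 library, in place of 4. The share of all tested genes was then 19.2% to 24.1%, in place of 16.5%. For lower members the count was 8 to 13, in place of 8, beside 22.3% to 26.4% of all tested genes, in place of 19.4%. Separate groups cannot come to overlap when a library is left out. The count of 8 became 5 after the length and GC correction (18.5% of all genes then tested). It was also 5 with a minimum of 5 FPKM (22.9%), where 34 members remain. The cytosolic median ran from -0.0935 (without D-serine replicate 1) to -0.0146 without 1 library, and the mitochondrial median, -0.0066 as reported, from -0.0951 (without D-serine replicate 3) to -0.0212. Without 1 library, the difference of 32 members became over 1.5 times smaller or reversed in at least 1 case, and that of Cars, Iars, Nars, Eprs, Rars, Iars2, Mars2 and Nars2 did not. Adjusted p-values under 0.1 occurred for Iars with small RNA left out (0.0913), a minimum of 5 FPKM (0.0941) and weighted libraries (0.0988), for Dars (0.0945) and Iars2 (0.0966) with small RNA left out, and without D-serine replicate 3 for Iars (0.0922), Dars (0.0751), Iars2 (0.0800) and Rars2 (0.0746). Signs reversed for Sars2 (-0.0047), Aimp2 (-0.0562) and Atf4 (-0.0346) after the length and GC correction, for Sars with quantile normalization (0.0238) and without vehicle replicate 3 (-0.0715 to 0.0011 without 1 library), and for Dtd2 without D-serine replicate 1 (-0.105) or vehicle replicate 1 (-0.0257; -0.105 to 0.1084 without 1 library); the cause was not tested. With the replicate number as a block, 2 genes of all tested were called and 0 members. Same-numbered libraries did not deviate together (correlations -0.07, 0.003 and 0.067), and D-serine replicate 1 correlated best with vehicle replicate 2 (0.083). With 3 libraries per group, these correlations cannot exclude a pairing by number. Pars2, with about 50 fragments in its lowest library, has the least depth.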

Other observations

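Other steps around aminoacylation, read from lists, gave further values without a call in limma at an adjusted p of 0.05. Of all tested genes, 0.0767% passed at that threshold. In mitochondria, 8 of 10 partner genes were lower (median -0.16 on the log2 scale), and 5 of the 10 had D-serine values below all vehicle values (against 19.4% of all tested genes). At an unadjusted p under 0.05, 0 were higher (13.1% of all tested genes) and 1 was lower (14.6%). Gfm1, the mitochondrial elongation factor that moves the ribosome along, was at 36.2, 22.7 and 40.7 FPKM with D-serine, against 54.8, 64.1 and 53.0 FPKM with vehicle (log2 difference -0.80 ± 0.21, limma adjusted p = 0.0841). Cytosolic elongation factors differed in direction. Eef1d, a subunit of the exchange factor of eEF1A, was at 99.6, 98.9 and 89.3 FPKM with D-serine, against 71.7, 78.0 and 78.0 FPKM with vehicle (limma adjusted p = 0.0908), while Eef2, the translocation factor, was at 433, 298 and 500 FPKM with D-serine, against 628, 584 and 503 FPKM with vehicle (limma adjusted p = 0.151).

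The 7 genes of the selenocysteine route had 2 higher and 5 lower, a median of -0.04 on the log2 scale and 0 that passed. At an unadjusted p under 0.05 there were 0 in either direction (13.1% of all tested genes were higher and 14.6% lower). The 16 genes of tRNA maturation and export had 6 higher and 10 lower, a median of -0.04 and 0 that passed. At an unadjusted p under 0.05, 2 were higher (12.5%, against 13.1% of all tested genes) and 2 lower (12.5%, against 14.6%). In tRNA maturation and export, groups did not overlap for 3 higher (18.8%, against 16.5% of all tested genes) and 4 lower genes (25%, against 19.4%), shares near the background.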
